A study of Rattus norvegicus with 32 samples.

Results

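The 10 transcripts described here are the core of the liver clock and the proline and acidic amino acid-rich basic leucine zipper (PAR bZIP) factors that it drives: Arntl, Clock and Npas2, Per1, Per2 and Per3, Nr1d1 and Nr1d2, and Dbp and Tef. They were taken by symbol from a table of 17327 genes, all 10 were found, and all 10 were among the 11002 genes with enough counts to be tested. The livers came from 32 Charles River Sprague Dawley rats under basal conditions, in 8 groups of 4: knockout (KO) and wild-type (WT) males and females at 60 and at 30 days of age. The KO rats are Cbg-/-, made with CRISPR/Cas9 against Serpina6, the gene of corticosteroid-binding globulin (CBG), which is secreted by the liver and carries corticosterone in blood; WT rats are Cbg+/+. Whole liver was sequenced, so fewer cells of a type and less RNA per cell cannot be told apart. Nothing in the labels gives the time of day of collection or a feeding state, so a group difference in level and a group difference in time of collection cannot be told apart for any clock transcript.

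In the clock of rodent liver, the protein made from Arntl (BMAL1) pairs with CLOCK or NPAS2 and turns on genes with an E-box, among them the Per genes, Nr1d1, Nr1d2, Dbp and Tef. PER proteins, with CRY proteins, then inhibit that pair, while the nuclear receptors made from Nr1d1 and Nr1d2 (REV-ERBs) repress Arntl and Npas2 through a sequence called the ROR response element. DBP and TEF, with their relative HLF, bind a D-box in genes of drug, bile acid and lipid metabolism, and NFIL3 competes with them for it. The arms therefore run against each other over the day, with Arntl and Npas2 low when Dbp and Per3 are high, and glucocorticoids and feeding are known to reset the liver clock, Per1 and Per2 having glucocorticoid response elements.

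Promoter letters are shown for members whose window carried one of 4 clock motifs searched on both strands, since these are sequences through which the factors of the loop are known to act. RefSeq (GRCr8) gave 12 windows of the 250 bases before a transcription start for the 10 members, out of 33469 windows in all. The motifs were the E-box CACGTG, the E-prime box CACGTT, the D-box TTATGTAA and the ROR response element TAGGTCA or TGGGTCA. They occur in 5.59%, 4.07%, 0.828% and 5.62% of all windows in that order. The windows below are written in the direction of transcription with the motif in capitals: Per2 at chr9:99496994-99497243 on the minus strand, Tef at chr7:115206577-115206826 on the plus strand, the more downstream Nr1d1 start at chr10:84229455-84229704 on the minus strand, and Arntl, which RefSeq calls Bmal1, at chr1:176766078-176766327 on the plus strand.
Per2: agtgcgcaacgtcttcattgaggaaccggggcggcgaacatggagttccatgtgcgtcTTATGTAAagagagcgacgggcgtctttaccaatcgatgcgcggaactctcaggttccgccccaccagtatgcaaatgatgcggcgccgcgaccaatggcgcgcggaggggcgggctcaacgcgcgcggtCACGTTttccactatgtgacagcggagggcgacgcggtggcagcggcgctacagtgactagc
Tef: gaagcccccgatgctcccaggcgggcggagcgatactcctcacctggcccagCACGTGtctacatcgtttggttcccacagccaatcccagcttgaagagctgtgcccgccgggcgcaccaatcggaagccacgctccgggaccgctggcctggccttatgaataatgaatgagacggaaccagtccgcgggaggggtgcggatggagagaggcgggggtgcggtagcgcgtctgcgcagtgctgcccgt
Nr1d1: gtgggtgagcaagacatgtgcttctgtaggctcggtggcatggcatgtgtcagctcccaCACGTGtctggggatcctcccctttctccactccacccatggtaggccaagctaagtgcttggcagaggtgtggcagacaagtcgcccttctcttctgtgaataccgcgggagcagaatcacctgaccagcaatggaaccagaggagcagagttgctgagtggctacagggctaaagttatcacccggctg
Arntl: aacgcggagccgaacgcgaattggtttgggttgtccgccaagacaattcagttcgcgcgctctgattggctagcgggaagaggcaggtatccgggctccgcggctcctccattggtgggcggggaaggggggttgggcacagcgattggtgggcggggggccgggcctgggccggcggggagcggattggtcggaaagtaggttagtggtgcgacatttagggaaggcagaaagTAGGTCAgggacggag
Per2 held a D-box 192 to 185 bases and an E-prime box 62 to 57 bases before its start. Tef held an E-box 198 to 193 bases and the Nr1d1 window an E-box 191 to 186 bases before the start. The other Nr1d1 window held an E-prime box on the opposite strand, 174 to 169 bases before the start. Arntl held a ROR response element 16 to 10 bases before its start. The windows of Dbp, Per1, Per3, Clock, Npas2 and Nr1d2 held none of these letters; nothing outside these 250 bases was searched.

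Libraries held 12951969 to 21954929 reads on genes, with at most 17133332 at 60 days and at least 16806943 at 30 days. The target checked the labels: Serpina6 averaged 62.8 against 487 CPM (reads on a gene scaled to a common library size) in KO and WT males and 106 against 1150 CPM in KO and WT females at 60 days, with no KO library overlapping a WT library at either age or in either sex. Hepatocyte markers summed to 188000 to 277000 CPM in every library. The library of 60-day KO female 1 stood apart: 14 of 15 listed photoreceptor markers were in the table and none of the 14 was at 0 in it, with a sum of 2140 CPM, while the other 3 libraries of that group had sums of 4.88 to 11.3 CPM and the 60-day WT females 2.89 to 7.69 CPM. For the members, calls between genotypes in 60-day females are given with and without this library, as are some of the other calls that use it. Values of genes outside the members are given only with it, except for some correlations with Dbp. Replicate numbers name libraries in the order of the series and link no animals; nothing more is said of how animals were housed or sampled, so p-values measure the spread between these animals' libraries.

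Below, levels are CPM scaled by the trimmed mean of M-values, and a fold change is a log2 value ± SE from edgeR's quasi-likelihood fit to all 32 libraries. A transcript is said to have risen or fallen where its Benjamini-Hochberg adjusted p over all 11002 genes was below 0.05. Levels are compared within a gene across groups, not between genes, because no gene lengths entered the values.

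**Figure D1:**
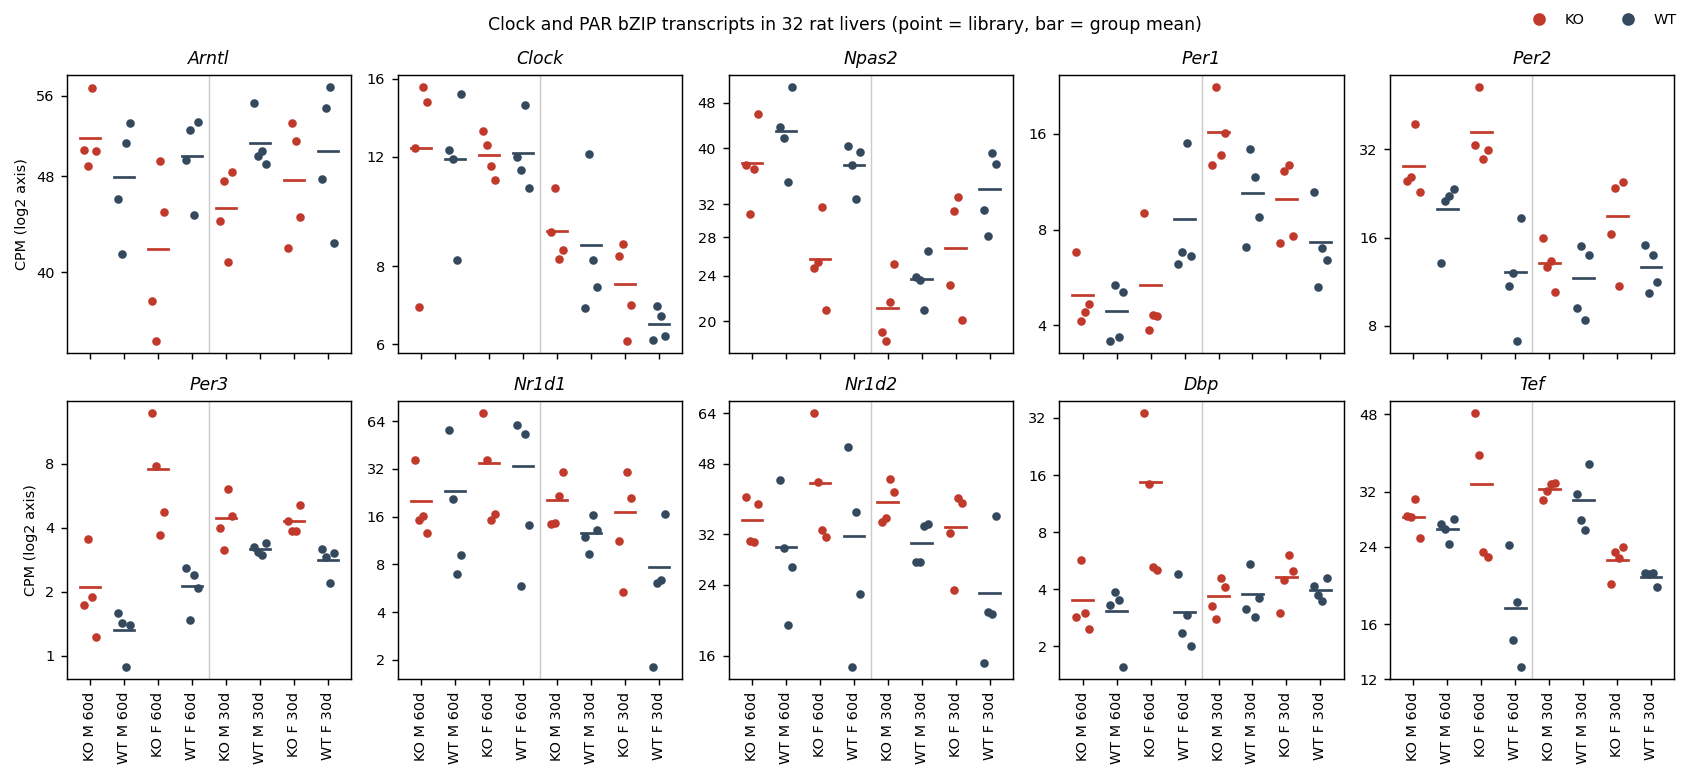
CPM of each of the 10 transcripts on a log2 axis, by group (KO in red left of WT in dark blue; M males, F females; 60 days left of the line, 30 days right of it); points are libraries, bars group means, n = 4. Dbp sits between 1.56 and 6.03 CPM in all groups except the 60-day KO females, which run from 5.08 to 33.9 CPM.

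Members passed the test between genotypes in 60-day females and in none of the other 3 comparisons; whether the effects differ is tested further on. In 60-day females Per2, Per3, Dbp and Tef rose in KO liver and Npas2 fell, 4 higher and 1 lower of the 10 members. Across the genome 6.77% of genes tested were called in this comparison (745 genes, 383 higher and 362 lower), and the median fold change was 0.25 for the 10 members against 0.01 for all genes. These calls draw on the spread estimated over all 32 libraries: fitted to the 8 libraries of 60-day females alone, 0 of the 10 passed (for the 5 called above, adjusted p between 0.0756 for Per2 and 0.224 for Dbp) and 56 genes in all were called. Dbp also missed the threshold in the fit to the 16 libraries of 60 days (adjusted p = 0.0506).

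The PAR bZIP factors come first. Dbp, the D-box activator with one of the largest daily swings known in liver, had 33.9, 14.4, 5.23 and 5.08 CPM in 60-day KO females, against 4.80, 2.35, 2.93 and 2.00 CPM in 60-day WT females. Every KO library was above every WT library, but KO 3 and 4 lay just above WT 1, and KO 1 and 2 carried most of the difference. The fold change was 2.27 ± 0.45 (adjusted p = 0.0026, edgeR), a 4.83-fold higher level. Without KO 1, the library with photoreceptor transcripts, it was 1.45 ± 0.35 (adjusted p = 0.0187). Tef, the second D-box activator in the set, had 48.3, 38.9, 23.4 and 22.8 CPM in KO females and 24.2, 14.7, 18.0 and 12.8 CPM in WT females. The same KO pair was highest, and KO 3 and 4 lay below WT 1, so the groups overlapped. Tef rose by 0.94 ± 0.18 (adjusted p = 0.00188), and by 0.71 ± 0.16 without KO 1 (adjusted p = 0.0116).

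Of the period genes, which encode the inhibitors of the loop, Per2 separated the groups most evenly. It had 33.1, 52.2, 29.6 and 31.8 CPM in KO females, against 10.9, 12.1, 7.10 and 18.7 CPM in WT females. Each KO library lay well above the highest WT library, with KO 2 and not KO 1 at the top. The rise of Per2 was 1.60 ± 0.28 (adjusted p = 0.000987), 3.02-fold, and 1.64 ± 0.30 without KO 1 (adjusted p = 0.00243). Per3 had 13.8, 7.80, 3.69 and 4.75 CPM in KO females and 2.6, 1.48, 2.41 and 2.08 CPM in WT females. The order of the KO libraries of Per3 began with KO 1 and 2, as for Dbp and Tef. Its rise was 1.80 ± 0.31 (adjusted p = 0.000696), and 1.34 ± 0.27 without KO 1 (adjusted p = 0.00438). Per1, a period gene that glucocorticoids induce directly, went the other way without passing the test: 9.00, 3.87, 4.30 and 4.28 CPM in KO females against 6.22, 6.79, 15.0 and 6.61 CPM in WT females, a fold change of -0.72 ± 0.32 (adjusted p = 0.193). For Per1 one library of each group stood far above its other 3, KO 1 and WT 3.

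On the activator arm, Npas2, the partner of BMAL1 that can stand in for CLOCK, had 24.8, 25.4, 31.6 and 20.9 CPM in KO females and 40.3, 37.4, 32.6 and 39.4 CPM in WT females. All 4 KO libraries were lower, KO 3 only just below WT 3. Npas2 fell by 0.54 ± 0.15 (adjusted p = 0.0299), a call that held in 2 of the 8 fits that left out 1 of these libraries (adjusted p up to 0.0956) and not in the one without KO 1 (-0.52 ± 0.17, adjusted p = 0.0779). Arntl had 37.9, 35.1, 49.4 and 44.9 CPM in KO females against 49.5, 52.4, 44.6 and 53.3 CPM in WT females, and its fold change of -0.25 ± 0.10 did not pass (adjusted p = 0.148). The Arntl level was lowest in KO 1 and 2, the libraries highest in Dbp, Per3 and Tef. Clock, which in rodent liver cycles little, averaged 12.1 CPM in both groups (-0.01 ± 0.19).

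The REV-ERB genes did not pass the test in 60-day females, and their libraries were widely scattered. Nr1d1 had 71.7, 36.5, 15.3 and 16.5 CPM in KO females and 60.6, 5.85, 52.9 and 14.2 CPM in WT females, a fold change of 0.06 ± 0.69. The WT libraries alone spanned 10.4-fold. Nr1d2 had 64.1, 43.1, 32.8 and 31.6 CPM in KO females, against 52.8, 15.0, 36.3 and 22.7 CPM in WT females (0.44 ± 0.30, adjusted p = 0.444).

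**Figure D2:**
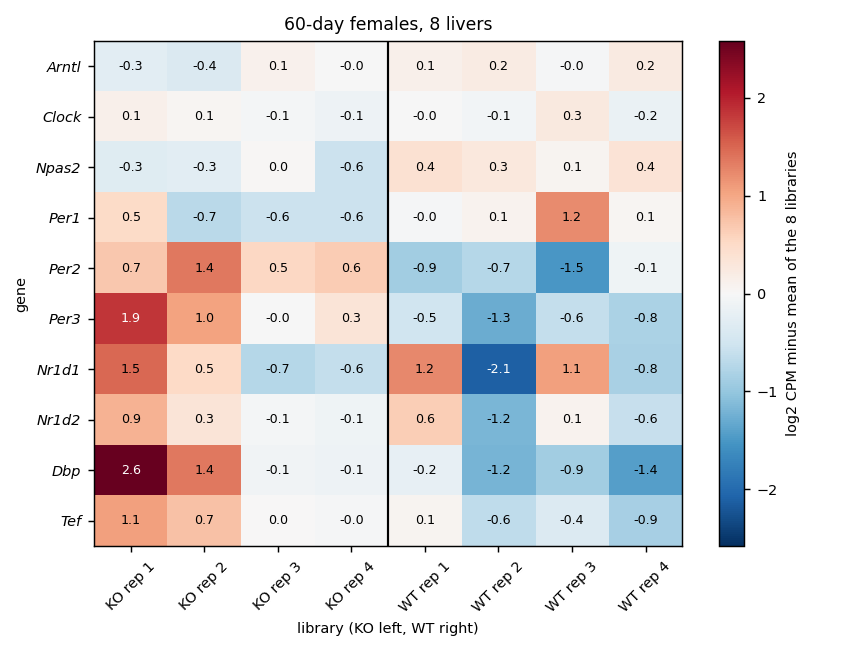
Log2 CPM of each transcript in the 8 livers of 60-day females, minus the mean of the 8 (colour and number; KO libraries left, WT right). Per2 is above 0 in all 4 KO livers and below 0 in all 4 WT livers, while Dbp, Per3 and Tef are highest in KO 1 and 2.

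Other measures differed between the same 8 libraries. Stellate cell markers summed to 443 to 473 CPM in KO and 273 to 441 CPM in WT females, cholangiocyte markers to 16.1 to 19.9 against 11.8 to 15.0 CPM, and neutrophil markers to 2.00 to 4.35 against 1.01 to 1.58 CPM, none of these overlapping. Erythroid markers ran from 360 to 633 CPM in KO and 207 to 495 CPM in WT females, and Kupffer cell markers from 356 to 501 against 408 to 699 CPM. Of the single markers tested, edgeR called 0 of 6 stellate, 1 of 3 cholangiocyte and 0 of 2 neutrophil markers. It called 0 of 4 erythroid and 0 of 6 Kupffer cell markers, beside 6.77% of all genes. The share of reads that could not be given to a single gene was 0.314% and 0.315% in KO 1 and 2, 0.448% and 0.466% in KO 3 and 4, and 0.33% to 0.397% in WT females. The part of these cell types and of this share in the clock values was not tested.

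In the other 3 comparisons of genotype 0 of 10 members passed edgeR's test, and limma-voom and DESeq2 also called 0. Of all genes 0.209% were called in 60-day males, 0.3% in 30-day females and 0.0545% in 30-day males. At an unadjusted p below 0.05 stood 0 members in 60-day males (10.8% of all genes), 2 in 30-day females (10.7% of all genes) and 1 in 30-day males (5.94% of all genes). They were Npas2 (-0.346 ± 0.15, adjusted p = 0.399, edgeR) and Per2 in 30-day females, and Per1 in 30-day males (0.636 ± 0.286, adjusted p = 0.798, edgeR). Per1 had positive fold changes in these 3 comparisons, unlike in 60-day females. In 60-day males Per2 had 24.9, 25.8, 39.2 and 22.8 CPM in KO and 13.1, 21.3, 22.2 and 23.4 CPM in WT liver. Only the highest WT library reached into the KO range, and the fold change was 0.50 ± 0.27 (adjusted p = 0.529). Dbp in 60-day males had 2.84, 5.69, 3.01 and 2.46 CPM in KO and 3.32, 3.86, 3.5 and 1.56 CPM in WT liver, and the groups overlapped (0.18 ± 0.48, adjusted p = 0.934). Per3 in 30-day females had 4.31, 3.88, 3.87 and 5.12 CPM in KO against 3.17, 2.93, 2.20 and 3.04 CPM in WT liver. These groups did not overlap (exact permutation p = 0.0286, two-sided, the smallest that 4 against 4 can give), but the fold change of 0.60 ± 0.29 had an adjusted p of 0.471. A number in the titles of the 30-day samples, whose meaning is not given, was 2 for all 4 of these KO libraries and 1 for 3 of the 4 WT libraries, and with it as a covariate the fold change of Per3 was 0.56 (adjusted p = 0.327). Per2 in 30-day females had 16.4, 23.6, 10.9 and 24.7 CPM in KO and 15.1, 10.3, 13.9 and 11.3 CPM in WT liver, with one KO library inside the WT range (0.58 ± 0.27, adjusted p = 0.454). In 30-day males Arntl had 44.1, 47.6, 40.8 and 48.4 CPM in KO and 55.2, 49.9, 50.4 and 49.2 CPM in WT liver (-0.18 ± 0.10, adjusted p = 0.87), and Nr1d2 had 34.3, 35.2, 44.0 and 40.8 CPM in KO and 27.3, 27.4, 33.5 and 34.0 CPM in WT liver (0.34 ± 0.30, adjusted p = 0.955). For both the groups did not overlap (exact permutation p = 0.0286 each, two-sided). These exact p-values, that of Per3 included, were not adjusted for the 10 members and 3 comparisons looked at. The share of all genes without overlap was not computed. Per2, Per3, Nr1d2 and Tef had positive fold changes in all 4 comparisons and Npas2 negative ones. Of these only those of Per2, Per3, Tef and Npas2 in 60-day females passed. The share of all genes with the same sign in all 4 comparisons was not computed.

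**Figure D3:**
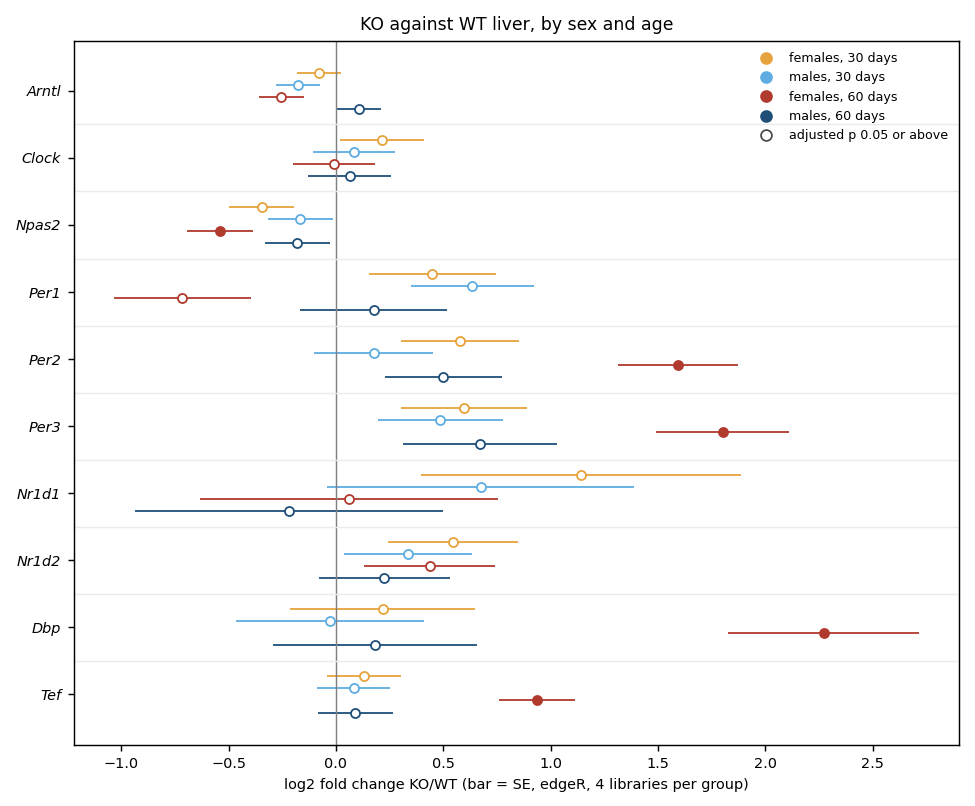
Log2 fold change of KO over WT for each transcript (points; bars are SE) in 30-day and 60-day females and males, filled where the adjusted p was below 0.05. The 5 filled points are all of 60-day females, from -0.54 for Npas2 to 2.27 for Dbp.

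Whether the effect of genotype differed between sexes or ages was tested directly. The KO effect in males minus that in females at 60 days was -2.09 ± 0.65 for Dbp (adjusted p = 0.203), -0.84 ± 0.25 for Tef (adjusted p = 0.185), -1.10 ± 0.39 for Per2 (adjusted p = 0.294) and -1.13 ± 0.48 for Per3 (adjusted p = 0.379). In females, the KO effect at 60 days minus that at 30 days was 2.05 ± 0.62 for Dbp (adjusted p = 0.0648), 0.81 ± 0.25 for Tef (adjusted p = 0.0688), 1.21 ± 0.43 for Per3 (adjusted p = 0.113) and 1.02 ± 0.39 for Per2 (adjusted p = 0.153). None passed the threshold by edgeR. At an unadjusted p below 0.05 stood 5 of 10 members in each of these tests, against 10.6% of all genes by sex at 60 days and 17.6% by age in females. Besides those above, these were Arntl by sex (0.362 ± 0.147, adjusted p = 0.357, edgeR) and Per1 by age (-1.164 ± 0.435, adjusted p = 0.139, edgeR). Both had the opposite sign to the others in their test. Without KO female 1 the values by sex were -1.27 ± 0.50 for Dbp, -0.61 ± 0.22 for Tef, -1.14 ± 0.41 for Per2 and -0.67 ± 0.41 for Per3, and those by age 1.23 ± 0.48 for Dbp, 0.57 ± 0.22 for Tef, 0.74 ± 0.36 for Per3 and 1.06 ± 0.41 for Per2 (adjusted p between 0.183 and 0.601 over the 8). limma-voom called 0 in both, and DESeq2 called 1 member by sex at 60 days and 2 by age in females. By edgeR 0.136% of all genes differed by sex at 60 days and 2.96% by age in females. By sex at 30 days 0% of all genes and 0 of 10 members were called, with 606 genes (5.51%) and 0 members at an unadjusted p below 0.05. By age in males 0.00909% of all genes and 0 members were called, again with 0 members at an unadjusted p below 0.05 (5.34% of all genes). For both of these limma-voom and DESeq2 called 0 members.

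Some members differed between 60 and 30 days in both genotypes. Sample titles take a different form at each age. Reads on genes numbered 12951969 to 17133332 per library at 60 days and 16806943 to 21954929 at 30 days. Age and any difference in handling between these sets of libraries cannot be told apart. At 60 against 30 days 4 of 10 members changed in KO males (28.4% of all genes called) and 4 in WT males (31.5% of all genes called), Npas2 and Per2 upward and Per1 and Per3 downward in both. Npas2 had 37.4, 30.8, 36.8 and 45.9 CPM in 60-day KO males, against 19.2, 18.5, 21.6 and 25.2 CPM at 30 days. In WT males it had 43.5, 41.7, 34.9 and 51.1 CPM at 60 days and 23.9, 23.6, 20.9 and 26.5 CPM at 30 days. All 60-day male livers were above all 30-day male livers of their genotype, by 0.83 ± 0.15 in KO (adjusted p = 0.000116) and 0.85 ± 0.15 in WT (adjusted p = 7.49e-05). Per1 had 6.79, 4.14, 4.41 and 4.67 CPM in 60-day KO males and 12.8, 22.4, 13.7 and 16.1 CPM at 30 days, a fold change of -1.70 ± 0.31 (adjusted p = 0.000138). WT males had 3.58, 5.35, 3.69 and 5.10 CPM of Per1 at 60 days and 7.03, 14.3, 11.7 and 8.78 CPM at 30 days (-1.24 ± 0.32, adjusted p = 0.00348). Here too the ages did not overlap in either genotype.

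Per3 fell in males with age, by 1.07 ± 0.31 in KO (adjusted p = 0.0102) and by 1.26 ± 0.34 in WT (adjusted p = 0.0047). Its lowest group mean was that of 60-day WT males, with 1.59, 1.43, 0.89 and 1.40 CPM, against 3.25, 3.07, 2.99 and 3.40 CPM at 30 days. Per2 rose instead, by 1.11 ± 0.27 in KO males (adjusted p = 0.003) and 0.78 ± 0.28 in WT males (adjusted p = 0.0326). The WT call of Per2 held in 3 of 8 fits without 1 library (adjusted p up to 0.104) and not when libraries were scaled by their totals alone (adjusted p = 0.082).

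In females Clock rose with age in both genotypes. It had 13.2, 12.5, 11.6 and 11.0 CPM in 60-day KO females against 8.31, 8.68, 6.08 and 6.95 CPM at 30 days, and 12.0, 11.4, 14.5 and 10.7 CPM in 60-day WT females against 6.10, 6.91, 6.66 and 6.19 CPM at 30 days. Neither genotype showed an overlap between ages, and the rises were 0.68 ± 0.19 (adjusted p = 0.00967) and 0.91 ± 0.20 (adjusted p = 0.000558). In males the fold changes of Clock were 0.43 ± 0.19 in KO and 0.45 ± 0.19 in WT and did not pass (adjusted p = 0.0896 and 0.07). WT females had 2 members called, both higher at 60 days (33.1% of all genes called): Clock, and Nr1d1 by 2.11 ± 0.75 (adjusted p = 0.0315). The Nr1d1 call held in 3 of 8 fits without 1 library. KO females had 5 members higher and 1 lower (22.7% of all genes called). Besides Clock these were Per2 (0.96 ± 0.27, adjusted p = 0.00992), Dbp (1.65 ± 0.42, adjusted p = 0.00429), Tef (0.57 ± 0.17, adjusted p = 0.0164) and Per3 (0.80 ± 0.28, adjusted p = 0.0409), with Per1 lower (-0.91 ± 0.31, adjusted p = 0.0341). Without KO 1 of the 60-day females the last 3 of the rises no longer passed: Dbp was 0.83 ± 0.33 (adjusted p = 0.0798), Tef 0.34 ± 0.16 (adjusted p = 0.138) and Per3 0.33 ± 0.25 (adjusted p = 0.393). The Per1 and Per3 calls held in 3 of 8 fits without 1 library (adjusted p up to 0.106 for Per1 and 0.393 for Per3). That of Per2 was lost without KO 2 of the 60-day females (adjusted p = 0.0573). Fitted to the 8 libraries of KO females alone, 1 of the 6 members passed, Clock.

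Markers of other cells moved with age as well. Stellate cell markers summed to 443 to 473 CPM at 60 days against 861 to 1000 CPM at 30 days in KO females, 273 to 441 against 1050 to 1440 CPM in WT females, 482 to 612 against 984 to 1460 CPM in KO males and 310 to 550 against 876 to 1180 CPM in WT males. Of the 6 markers 3 fell in KO females, 6 in WT females, 4 in KO males and 5 in WT males, and 0 rose. Cholangiocyte markers summed to 11.8 to 22.1 CPM over all 60-day libraries against 25.2 to 35.6 CPM over all 30-day libraries. The part of these cell types in the changes of the clock genes with age was not tested.

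**Figure D4:**
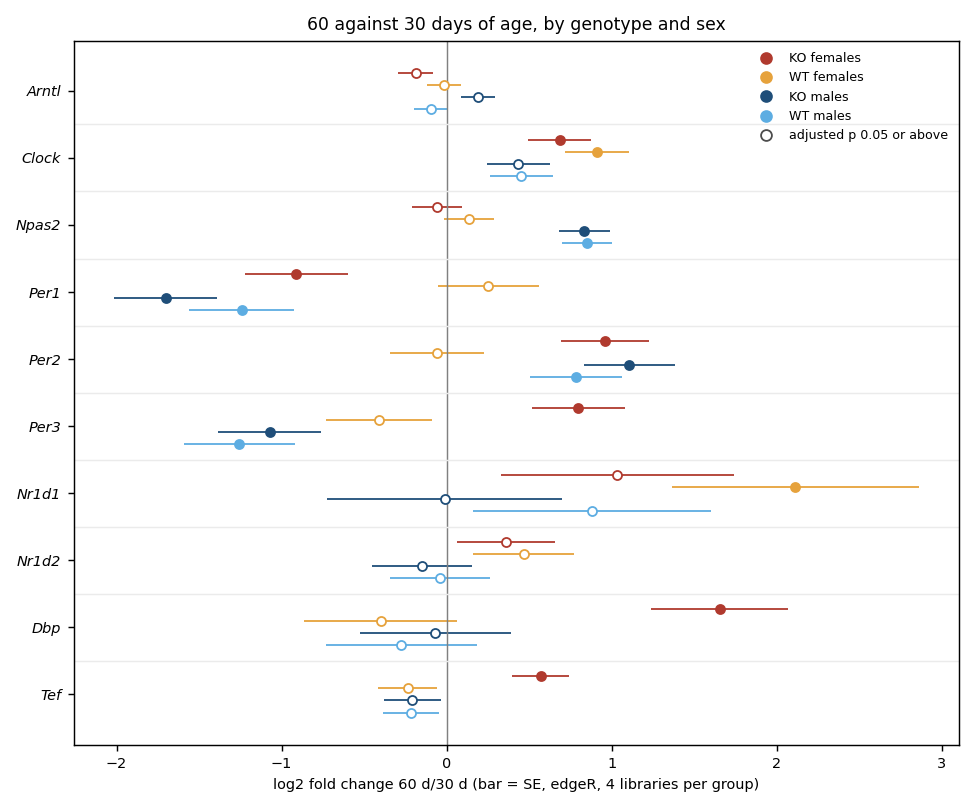
Log2 fold change of 60 over 30 days for each transcript (points; bars are SE) in KO and WT females and males, filled where the adjusted p was below 0.05. Npas2 stands at 0.83 and 0.85 in KO and WT males and at -0.06 and 0.14 in KO and WT females.

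The change with age in males minus that in females was tested for every gene, a comparison added after the values were seen. It was 0.89 ± 0.22 for Npas2 in KO (adjusted p = 0.0124) and 0.71 ± 0.21 in WT (adjusted p = 0.0315). The difference in Npas2 between ages was therefore unlike in the sexes in both genotypes. The KO value held in all 16 fits without 1 library and the WT value in 9 of 16. Per3 differed in KO (-1.87 ± 0.42, adjusted p = 0.00728, and -1.40 ± 0.36 without KO female 1 of 60 days, adjusted p = 0.0224), though not when the 16 KO libraries were fitted alone (adjusted p = 0.057), and Per1 in WT (-1.50 ± 0.44, adjusted p = 0.0299), the Per1 call being lost without WT female 3 of 60 days (adjusted p = 0.105). In all 1 member was called upward and 1 downward in each genotype, beside 4.69% of all genes in KO and 9% in WT.

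The sexes at a given age differed in few members. At 60 days KO males against KO females had 2 members higher and 2 lower (18.5% of all genes called). Npas2 was higher in males (0.55 ± 0.15, adjusted p = 0.01), at 37.7 ± 6.24 against 25.7 ± 4.42 CPM (SD, n = 4 each), and Arntl too (0.30 ± 0.10, adjusted p = 0.0394), though the Arntl call held in 3 of 8 fits without 1 library and not in the one without KO female 1 (adjusted p = 0.129). Fitted to these 8 libraries alone, Npas2 and Per3 passed, and Arntl (adjusted p = 0.109) and Dbp (adjusted p = 0.135) did not. Per3 was lower in KO males (-1.82 ± 0.31, adjusted p = 6.77e-05, and -1.35 ± 0.27 without KO female 1, adjusted p = 0.000592), with 1.74, 3.55, 1.89 and 1.23 CPM against the 3.69 to 13.8 CPM of KO females and no overlap. Dbp was lower too (-2.05 ± 0.44, adjusted p = 0.00112, and -1.23 ± 0.35 without KO female 1, adjusted p = 0.015). These comparisons use the same KO female libraries as the comparison with WT females above. WT males against WT females at 60 days had 1 member higher, Tef (0.60 ± 0.18, adjusted p = 0.0125), and 1 lower, Per1 (-0.98 ± 0.33, adjusted p = 0.025), with 26.4% of all genes called. Without WT female 3, whose Per1 stood at 15.0 CPM, Per1 was -0.57 (adjusted p = 0.216). The Tef call was lost without WT female 4 (adjusted p = 0.0581) and in the fit to the 16 libraries of 60 days (adjusted p = 0.0677). Reads that could not be given to a single gene made up 0.554% to 0.648% in 60-day males and 0.314% to 0.466% in 60-day females; their part in the sex differences was not tested.

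Tef was higher in every male than in every female library of WT rats at both ages. Its level in 60-day WT males was 27.1, 26.3, 24.3 and 27.8 CPM, against 24.2, 14.7, 18.0 and 12.8 CPM in WT females. At 30 days it was 31.7, 27.6, 26.2 and 37.0 CPM in WT males against 20.9, 20.8, 20.9 and 19.4 CPM in WT females, and 30.6, 32.2, 33.4 and 33.5 CPM in KO males against 19.7, 23.3, 22.6 and 24 CPM in KO females. Males and females did not overlap in any of these comparisons. In the fit to all 32 libraries the 30-day differences, 0.58 ± 0.17 in WT (adjusted p = 0.0806) and 0.53 ± 0.17 in KO (adjusted p = 0.109), did not pass, and edgeR called 0 members in either genotype at 30 days (3 at an unadjusted p below 0.05 in each, beside 12.9% of all genes in WT and 13.2% in KO, limma-voom 0 in both, DESeq2 0 in KO and 2 in WT). In the fit to the 16 libraries of 30 days Tef was higher in males by 0.57 ± 0.09 in WT (adjusted p = 0.0024) and 0.53 ± 0.09 in KO (adjusted p = 0.00357), the change of fit being its smaller SE. Of all genes 2.07% were called between the sexes in WT and 2.24% in KO at 30 days. In 60-day KO rats the groups overlapped, with 28.2, 28, 30.8 and 25.1 CPM in males and 22.8 to 48.3 CPM in females (-0.25 ± 0.17, adjusted p = 0.366).

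Within groups the members varied to very different degrees. The pooled standard deviation of log2 CPM between libraries of a group was 1.07 for Nr1d1, higher than that of 99.5% of genes tested, and 0.61 for Dbp (95.2%). It was 0.41 to 0.44 for Per1, Per2, Per3 and Nr1d2, 0.29 for Clock, 0.26 for Tef and 0.23 for Npas2, and for Arntl 0.15, below the 0.19 of the median gene. Dbp, Per3 and Tef spread more at 60 than at 30 days, 0.80 against 0.34, 0.57 against 0.24 and 0.34 against 0.13, or 0.61, 0.46 and 0.29 at 60 days without KO female 1. The median gene also spread more at 60 days, 0.21 against 0.16, as did Nr1d1 (1.22 against 0.89), Nr1d2 (0.53 against 0.33) and Clock (0.34 against 0.23).

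Some pairs of members shared these deviations. With each gene centred on its group means, Nr1d1 and Nr1d2 moved together over the 32 libraries (r = 0.931, p = 1e-05, the smallest that 100000 permutations within groups can give, adjusted p = 0.00045; Spearman's rho = 0.905, p = 1e-05, adjusted p = 0.00045; r = 0.912 without the 2 libraries farthest out). Their r was 0.935 at 60 days and 0.933 at 30 days. For each pair the 2 libraries farthest out were picked by the gene named first, not by its partner. Values stayed centred on group means that included them. Per3 and Dbp also moved together (r = 0.738, permutation p = 0.00207, adjusted p = 0.0361; Spearman's rho = 0.632, p = 0.00354, adjusted p = 0.0398; r = 0.566 without the 2 farthest), as did Per3 and Tef (r = 0.666, permutation p = 0.00241, adjusted p = 0.0361; Spearman's rho = 0.645, p = 0.00172, adjusted p = 0.0295; r = 0.474 without the 2 farthest). Dbp and Tef had r = 0.721 (permutation p = 0.00598, adjusted p = 0.0439; Spearman's rho = 0.497, p = 0.0407, adjusted p = 0.146; r = 0.544 without the 2 farthest). For Per3 with Dbp r was 0.798 at 60 and 0.409 at 30 days, for Per3 with Tef 0.740 and 0.232, and for Dbp with Tef 0.806 and 0.210, higher each time in the 60-day livers; the difference between ages was not tested. Over both ages together, r without KO female 1 of 60 days was 0.639, 0.559 and 0.621 in the same order, beside 0.738, 0.666 and 0.721 with it. The mean of its group still included that library, so its pull on the deviations of the rest of the group remained. The r of the 60-day livers without it was not computed.

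Arntl and Per3 ran against each other (r = -0.562, permutation p = 0.00683, adjusted p = 0.0439; Spearman's rho = -0.612, p = 0.00197, adjusted p = 0.0295; r = -0.511 without the 2 farthest), with -0.599 at 60 and -0.586 at 30 days. Of the 45 pairs examined 7 had an adjusted p for r below 0.05. Arntl with Per3, one from each arm of the loop, was the only negative one of them. The share of other gene pairs past this threshold was not computed. Some genes outside the 10 members had larger r with Arntl and with Dbp, given below. The remaining 2 of the 7 pairs were Per3 with Nr1d1 (r = 0.495) and Per3 with Nr1d2 (r = 0.517). Both were past the threshold by r and not by rank (adjusted permutation p = 0.0535 and 0.0705 for Spearman's rho of 0.555 and 0.529). Per2 and Nr1d1 had r = -0.470 (permutation p = 0.0286, adjusted p = 0.092; Spearman's rho = -0.411, p = 0.0423, adjusted p = 0.146; r = -0.416 without the 2 farthest).

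**Figure D5:**
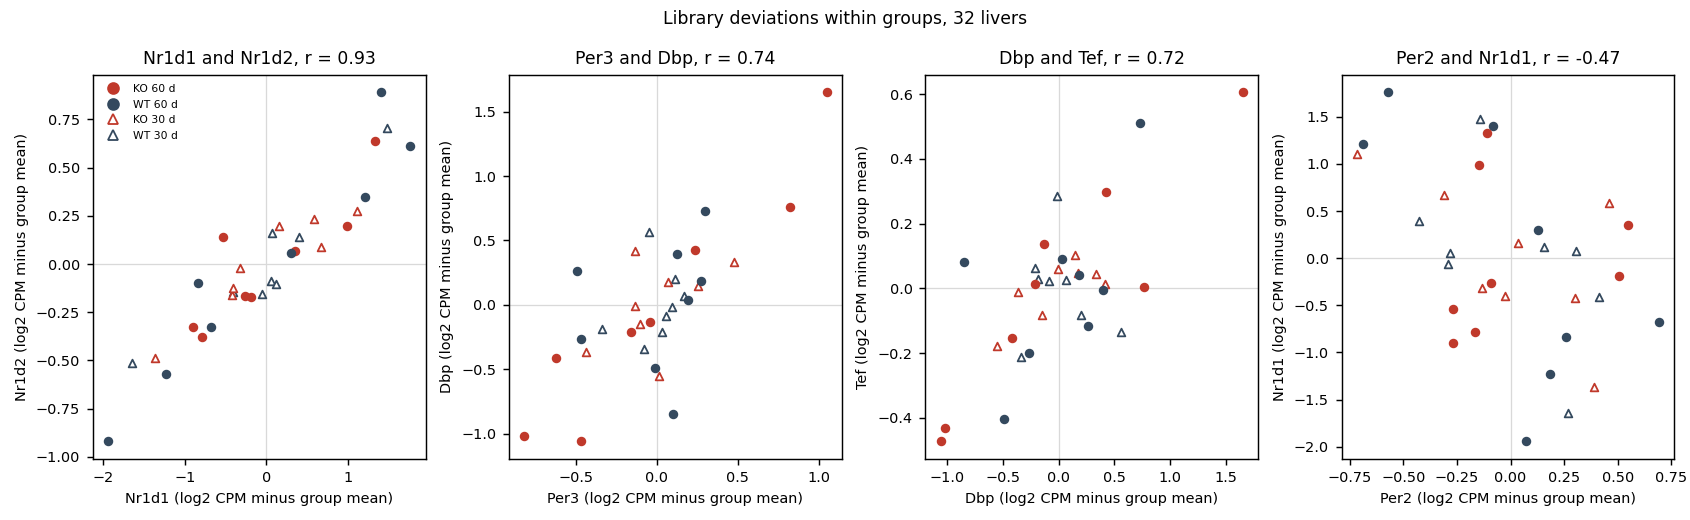
Deviation of each of 32 libraries from its group mean (log2 CPM) for 4 pairs of transcripts; circles are 60-day and triangles 30-day livers, red KO and dark blue WT. The points of Nr1d1 and Nr1d2 lie close to a line (r = 0.93), while those of Per2 and Nr1d1 slope downward (r = -0.47).

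Over the same centred values, the genes most like a member were looked up among 10091 genes with a mean of at least 1 CPM, as a description of these 32 libraries. Most like Arntl were Echdc1 (r = 0.767), Enpp3 (0.759), Idh2, the mitochondrial isocitrate dehydrogenase (0.752), Pex7, a peroxisomal import receptor (0.722), Abcb6 (0.711) and Lace1 (0.703). Least like it were Dclre1c (-0.701), complement C3 (-0.675) and Arsa, a lysosomal sulfatase (-0.653). Most like Dbp were Sugp2 (0.786), Dtx3 (0.784), Arhgef25 (0.738), Dclk1 (0.727), Ddx59 (0.721) and Pcbp3 (0.721). Least like Dbp were Ugdh, the enzyme that makes UDP-glucuronate (-0.813), Hspb1, a small heat shock protein (-0.769), and Ces1d, a carboxylesterase (-0.768). All points share the library and its depth. For Dbp the 2 libraries farthest out were 60-day KO females 1 and 4, and KO female 1 held the photoreceptor transcripts. Without these 2, r fell for every gene listed as most like Dbp. It was 0.626 for Sugp2, 0.601 for Dtx3, 0.635 for Arhgef25, 0.622 for Dclk1, 0.685 for Ddx59 and 0.472 for Pcbp3. Among the genes least like Dbp it was -0.705 for Ugdh, -0.795 for Hspb1 and -0.801 for Ces1d. Values stayed centred on a group mean that included both libraries, so their pull on the rest of the group remained. KO female 4 (5.08 CPM of Dbp) was close to KO female 3 (5.23 CPM), and both lay below a mean that included KO female 1 (33.9 CPM). The part of KO female 1 alone was not tested.

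The other clock genes were called about as often as all genes between genotypes. Of 15 further clock genes (CRYs, kinases, D-box and E-box competitors, ROR receptors), 11 were in the table and 10 were tested. In 60-day KO females 1 of the 10 rose and 0 fell, beside 6.77% of all genes called, Timeless by 0.59 ± 0.17 (adjusted p = 0.0282), with 11.8, 9.28, 12.5 and 9.36 CPM in KO against 6.77, 8.27, 8.53 and 4.77 CPM in WT liver and no overlap. Timeless in mammals is known mainly for work at the replication fork. Cry1 had a fold change of 0.07 ± 0.24, Cry2 of 0.23 ± 0.20 and Nfil3, the D-box repressor, of -0.30 ± 0.16 in the same comparison. The median over the 10 was 0.02. In the other 3 comparisons of genotype edgeR called 0 of the 10, with 0 to 3 at an unadjusted p below 0.05 (5.94% to 10.8% of all genes). With age, Timeless fell in all 4 combinations of sex and genotype, with fold changes of -0.99 ± 0.15 in KO females, -1.84 ± 0.16 in WT females, -1.48 ± 0.16 in KO males and -1.68 ± 0.16 in WT males, and the KO and WT female values differed (0.85 ± 0.22, adjusted p = 0.03). Nfil3 rose with age in males, by 0.92 ± 0.16 in KO (adjusted p = 8.59e-05) and 0.56 ± 0.16 in WT (adjusted p = 0.00904).

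Of 18 genes known in rodent liver as outputs of the clock or of the PAR bZIP factors 16 were tested, and in 60-day KO females 0 rose and 1 fell (median -0.22, against 0.01 for all genes), a share near the 6.77% of all genes called. The one that fell was Nr1i3, the nuclear receptor CAR, a PAR bZIP target in mouse liver. It had 1.65, 0.58, 1.35 and 2.67 CPM in KO and 2.99, 5.78, 5.34 and 16.4 CPM in WT females, without overlap, a fold change of -2.29 ± 0.52 (adjusted p = 0.00805). The KO effect on Nr1i3 at 60 days minus that at 30 days was -2.36 ± 0.65 in females (adjusted p = 0.0435). Wee1, a mitotic kinase under E-box control in mouse liver, had 0.94 ± 0.30 (adjusted p = 0.052) at 60 days, and its KO effect in females differed between ages by 1.69 ± 0.38 (adjusted p = 0.0135). In the other 3 comparisons of genotype 0 of 16 outputs passed edgeR's test, with 1 to 3 at an unadjusted p below 0.05 (5.94% to 10.8% of all genes).

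Lists that bear on what sets the liver clock were counted beside the members in 60-day KO females, where 6.77% of all genes were called and 20.8% had an unadjusted p below 0.05. Of 8 genes tied to the glucocorticoid receptor 0 rose and 2 fell, Zbtb16 (-1.93 ± 0.37, adjusted p = 0.00223) and Klf9 (-0.73 ± 0.22, adjusted p = 0.0366), both induced by the receptor. Klf9 is a clock-controlled gene as well. In 60-day males 0 of these 8 were called (0.209% of all genes) and 2 had an unadjusted p below 0.05 (10.8% of all genes). Fold changes were positive for 1 of the 8 in 60-day males and 2 in 60-day females, with medians of -0.38 and -0.20. Of 10 genes of feeding and fasting 1 rose, Srebf1, which insulin induces (1.35 ± 0.21, adjusted p = 0.000212), and 1 fell, Pck1, which fasting induces (-1.50 ± 0.33, adjusted p = 0.00675). Of 8 genes that respond to body temperature 6 were tested and 0 passed (1 at an unadjusted p below 0.05). The part of hormone, feeding or temperature in the clock values was not tested.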

How the data were processed

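The deposited tables cover the 32 liver libraries: unnormalised read counts per gene, and log2 values. Per the labels' protocols, Trizol RNA went into a stranded kit for messenger RNA. The submitters' processing notes name Rnor_5.0, Cufflinks, STAR and limma without roles. Tool versions, gene annotation and the strand used in counting were not given in the sources used here, so reads of overlapping or antisense genes could not be told apart. The deposited log2 table held log2 CPM of 11344 genes and equalled values recomputed from the counts to within 5e-09 for 11340 uniquely named genes; it was used for that check alone. Reads on no feature (18.05% to 21.18%) and ambiguous reads (0.262% to 0.648%) stayed out of library sizes.

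Differences between groups were fitted to the counts in R 4.3.3 by edgeR 4.0.16. Genes passed filterByExpr with a minimum count of 10 and 4 as the smallest group size, libraries were scaled by TMM, and 8 group means entered 1 robust quasi-likelihood fit of 32 libraries (24 residual degrees of freedom). P-values were adjusted by Benjamini-Hochberg over 11002 genes, with a threshold of 0.05. The common biological coefficient of variation was 0.148. Of 18 contrasts, 2 (sex by age) were added after the values were seen, as were the permutation tests of the 45 correlations between members. Log2 CPM for correlations and permutations had a prior count of 2. DESeq2 1.42.0 and limma 3.58.1 (voom) were alternatives, with other scalings, no filter, fits to fewer libraries, a title number as covariate at 30 days, and each library left out in turn. The design was tested on simulated data.

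Members and gene lists were chosen with earlier results of these data known. Named genes were the 10 members, called members of the other lists (for each list those with the smallest adjusted p), and for Arntl and Dbp the 6 genes with the highest and 3 with the lowest r over the 32 libraries. In the lists of other clock genes and outputs Cry1, Cry2, Nfil3 and Wee1 were named after their values were seen. Promoter letters are from RefSeq (GRCr8), matched by gene; no genome of Rnor_5.0 was used here.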

Additional observations from a re-analysis of the deposited data

Results flagged for a closer look

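Of 80 sets of 4 libraries (10 transcripts in 8 groups) 6 held a library whose gap to its nearest neighbour took a share of the range of the group above Dixon's 95% limit for 4 values, where chance gives about 1 in 20. In 60-day females Per1 was flagged in both genotypes, in KO female 1 (9.00 CPM against 3.87 to 4.30 CPM in the other 3, share 0.915) and in WT female 3 (15.0 CPM against 6.22 to 6.79 CPM, share 0.936). Per2 was flagged in KO female 2 of 60 days (52.2 CPM against 29.6 to 33.1 CPM, share 0.846), which is not the library with photoreceptor transcripts. Among 60-day KO males Nr1d1 was flagged in male 1 (36.6 CPM against 12.6 to 16.1 CPM, share 0.855) and Dbp in male 2 (5.69 CPM against 2.46 to 3.01 CPM, share 0.83). Tef was flagged in WT female 4 of 30 days (19.4 CPM against 20.8 to 20.9 CPM, share 0.948), where the whole group spans less than 2 CPM. The part of depth, RNA quality or time of collection in these libraries was not tested.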

How the results depend on the processing

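No paired analysis was possible because replicate numbers follow the order of the series and the labels pair no animals. Of 31 calls (a member in a comparison) 0 reversed; 17 held in every fit without 1 library, 14 under every other setting and 11 in all. For KO against WT in 60-day females the count was 5 of 10, 4 to 5 without 1 library, and 0 where only these 8 libraries were fitted, when 56 genes in all were called instead of 745; adjusted p was then 0.0756 for Per2, 0.0858 for Npas2, 0.104 for Per3, 0.202 for Tef and 0.224 for Dbp. Dbp also missed in the fit to 16 libraries (adjusted p = 0.0506).

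Between the sexes at 30 days the count of 0 became 1 in KO in the fits to 16 libraries, with the title number and to the groups compared, and in WT 2 by DESeq2, 1 in the fit to 16 libraries, 1 with the title number, 2 in the fit to the groups compared and 0 to 1 without 1 library. At 60 days the 4 of KO became 2 in the fit to the groups compared and 2 to 4 without 1 library, and the 2 of WT became 1 by limma-voom, 1 in the fit to 16 libraries and 1 to 2 without 1 library. With age the 6 of KO females became 1 in the fit to the groups compared and 2 to 6 without 1 library, and the 2 of WT females 1 by limma-voom, 1 in the fit to the groups compared and 1 to 2 without 1 library. The 0 of sex by genotype at 60 days became 1 by DESeq2 and 0 to 1 without 1 library, and the 0 of age by genotype in females 2 by DESeq2 and 0 to 3 without 1 library. The 2 of sex by age became 4 by DESeq2, 1 in the fit to the groups compared and 2 to 4 without 1 library in KO, and 0 to 2 without 1 library in WT. Fits to fewer libraries have fewer residual degrees of freedom and take their spread from those libraries alone. In the fits to 16 libraries, genes called between KO and WT females went from 33 to 50 at 30 days. At 60 days they went from 745 to 277. The median gene spread more at 60 than at 30 days (SD of log2 CPM 0.21 against 0.16), as did Dbp (0.80 against 0.34). The part of each in the changed counts was not tested.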

Other observations

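Arntl2, a relative of Arntl, was not among the members and was sparse. It averaged 0.97 ± 0.73 CPM in KO males and 1.32 ± 0.58 CPM in WT males at 60 days, against 0.019 ± 0.037 CPM in KO females and 0.075 ± 0.11 CPM in WT females (SD, n = 4 each), and edgeR called it higher in males in both genotypes (adjusted p = 0.000118 in KO and 8.64e-05 in WT). Insig2, an anchor of sterol sensing whose transcript cycles in rodent liver, was higher in males in all 4 sex comparisons, with log2 fold changes of 1.27 ± 0.14 in KO and 1.01 ± 0.14 in WT at 60 days and of 0.64 ± 0.14 in KO and 0.58 ± 0.14 in WT at 30 days. Upp2, a uridine phosphorylase, ran the other way at 60 days, lower in males by 1.86 ± 0.51 in KO and by 2.81 ± 0.53 in WT. These genes were named after their values were seen.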
